A study of Mus musculus with 2 samples.

Results

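The genes described here encode the axoneme of motile cilia, the microtubule shaft that lets a cilium beat, and a few factors that build it. They were chosen by symbol alone: every gene whose symbol starts with Cfap, Dnah, Rsph or Tekt, or with Spag and a digit, together with Foxj1, Dynlrb2, Cep126 and Rpgrip1l. This gave 72 of the 31053 genes listed in the files. A motile axoneme is a ring of doublet microtubules around a central pair. Dynein arms on the doublets walk along the neighbouring doublet to bend the shaft, and radial spokes carry signals from the central pair to the arms. In the brain such cilia cover the ependymal cells that line the ventricles and the aqueduct, and they move cerebrospinal fluid.

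RNA was measured in single cells with 10x Genomics droplet libraries from C57BL/6 mice of 10 weeks, from a dissected punch labelled as substantia nigra pars compacta, dissociated with papain. There were 2 libraries, 1 per group, with no replicates. The MNPQ library came from mice that were injected first with 10 mg/kg of paraquat and later with 30 mg/kg of maneb, on 2 days a week for 3 weeks, a pesticide pair used to model Parkinson's disease. The control library is labelled untreated, whereas the protocol describes saline injections on the same days; the sex is labelled pooled, whereas the protocol describes 3 males taken per group. With 1 pooled library a group, no test of the treatment was possible. Each interval below is a 95% interval (exact Poisson for levels, exact binomial for shares, exact conditional binomial for ratios) and covers counting error only, not the spread between mice, dissections or libraries. The values therefore compare libraries, not conditions.

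Unique molecular identifiers (UMIs), each standing for 1 captured RNA molecule, were counted per gene and barcode. Barcodes in which 200 or more genes were seen and in which the mitochondrial genome gave no more than 20% of the UMIs were kept. The 882 kept control cells held 2002640 UMIs and the 854 kept MNPQ cells 1958634, with medians of 974 and 945.5 per cell. Of 4 genes of dopaminergic neurons, which define the labelled nucleus, Th and Slc6a3 had 1 UMI each among control cells and 0 among MNPQ cells, and Slc18a2 had 1 in each library. The 4th, Ddc, also known from other cell types, had 42 and 62 UMIs, of which neuron-like cells held 2 and 4. The libraries shared 2 cell barcodes, 1 of them among kept cells. Cells were clustered without the 72 genes and without the genes of the other cilium lists described below. Ciliary genes on none of these lists were not left out. Clusters were named from marker genes outside these lists.

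One cluster of 32 cells was ependymal-like, from Tmem212, Rarres2, Mia, Calml4, Hdc and Cd24a. It held 26 of the 882 control cells (2.95%, interval 1.93 to 4.29) and 6 of the 854 MNPQ cells (0.703%, interval 0.258 to 1.52). Its cells were deep, with median depths of 7650 control and 9276.5 MNPQ UMIs. Of the 6 choroid plexus markers, Ttr, Kl, Aqp1 and Kcnj13 were at 0 in these cells in both libraries. The other 2 were present: Folr1 had 44 control and 4 MNPQ UMIs here and 0 in all other kept cells, and Clic6 had 8 and 1. The 6 together stood at 227 and 104 CPM (counts per 1000000 UMIs of the cells summed), against 8.46 and 13.1 CPM in the other cells. Of the 6 markers of tanycytes, Col25a1 and Nhlh2 were at 0 in the control ependymal-like cells. These 6 stood at 126 CPM (29 UMIs) in control and 20.9 CPM (1 UMI) in MNPQ ependymal-like cells, against 27.6 and 11.0 CPM in the other cells. All 5 markers of cycling cells were at 0. Smooth muscle markers stood at 336 CPM in its control cells and at 1857 CPM in its MNPQ cells, where 1 cell held 46 of the 89 UMIs. Astrocyte markers stood at 1500 and 2087 CPM. Whether RNA of other cells bears on the values below was not tested.

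The axonemal genes were concentrated in these few cells. Of their 5932 UMIs, 3999 (67.4%) lay in the 32 ependymal-like cells, which were 1.84% of the kept cells and held 7.00% of all UMIs. In the control library the 72 genes together made up 14815 CPM in ependymal-like cells (interval 14321 to 15322) and 622 CPM in all other cells (586 to 660). In the MNPQ library they made up 12562 CPM (11578 to 13607) and 434 CPM (405 to 465). Every one of the 32 cells held at least 10 of the genes, and the median cell held 37 (control) or 38.5 (MNPQ) of them.

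**Figure D1:**
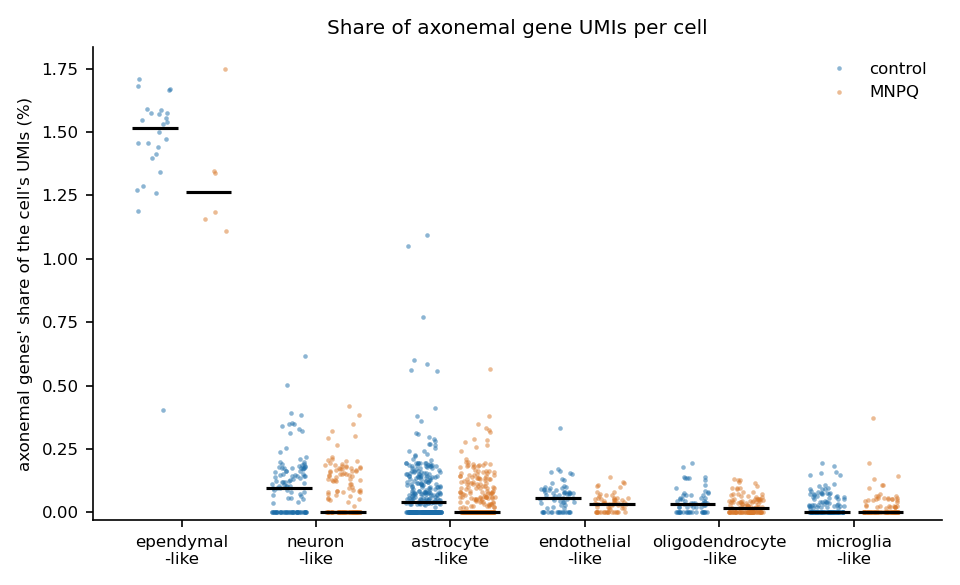
Share of each cell's UMIs that came from the 72 axonemal genes (vertical axis, percent), for 6 cell classes (horizontal axis) in the control and MNPQ libraries; points are cells and bars are medians. Ependymal-like cells sat between 0.403% and 1.75%, and the medians of every other class shown were below 0.1%.

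The share differed little between most cells. In control ependymal-like cells it ran from 0.403% to 1.71% with a median of 1.52%, and in MNPQ cells from 1.11% to 1.75% with a median of 1.26%, so the ranges overlapped. Across the 32 cells the logarithm of the UMIs of axonemal genes followed that of all UMIs with a Pearson r of 0.955, which describes cells that share their libraries and differ in depth. The deepest cell, a control cell with 38864 UMIs, held 612 axonemal UMIs, 18.0% of those in the control ependymal-like cells. Without it the control level was 14625 CPM.

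**Figure D2:**
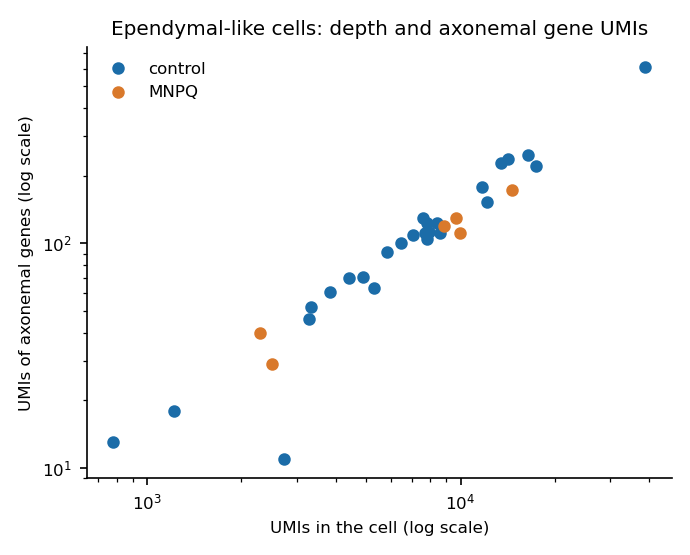
UMIs of the 72 axonemal genes (vertical axis, log scale) against all UMIs (horizontal axis, log scale) in each of the 26 control and 6 MNPQ ependymal-like cells. The points lie along 1 line from 781 to 38864 UMIs, apart from 1 control cell with 11 axonemal UMIs of 2727.

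Of the 72 genes, 52 had at least 20 UMIs in the kept cells, 14 had 1 to 19, and 6 had none (Dnah17, Rsph6a, Spag6, Spag11a, Spag11b and Spag17os). Of the 52, 31 had at least 90% of their UMIs in ependymal-like cells, 10 had 50% to under 90%, and 11 had under 50%; the median was 91.9%. As a description of the class against all other kept cells, genes with at least 10 UMIs in a library were counted when they were at least 4-fold higher in ependymal-like cells. The minimum was set on all kept cells of the library. Genes such as Spag17, with 85 control UMIs within the class and 0 outside, reached it through ependymal-like cells alone. Such genes could only be counted as higher, so the counts below describe the class and are no separate evidence. In the control library 52 of 55 axonemal genes were, against 8.76% of all 12271 genes counted, and the 3 others were Cfap97, Spag7 and Spag9. In the MNPQ library 28 of 34 were, against 7.95% of 11730 genes, and the 6 others were Cfap36, Cfap97, Rsph3b, Spag5, Spag7 and Spag9. In the control library the median log2 ratio was 6.41 over the axonemal genes and -0.07 over all genes counted.

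**Figure D3:**
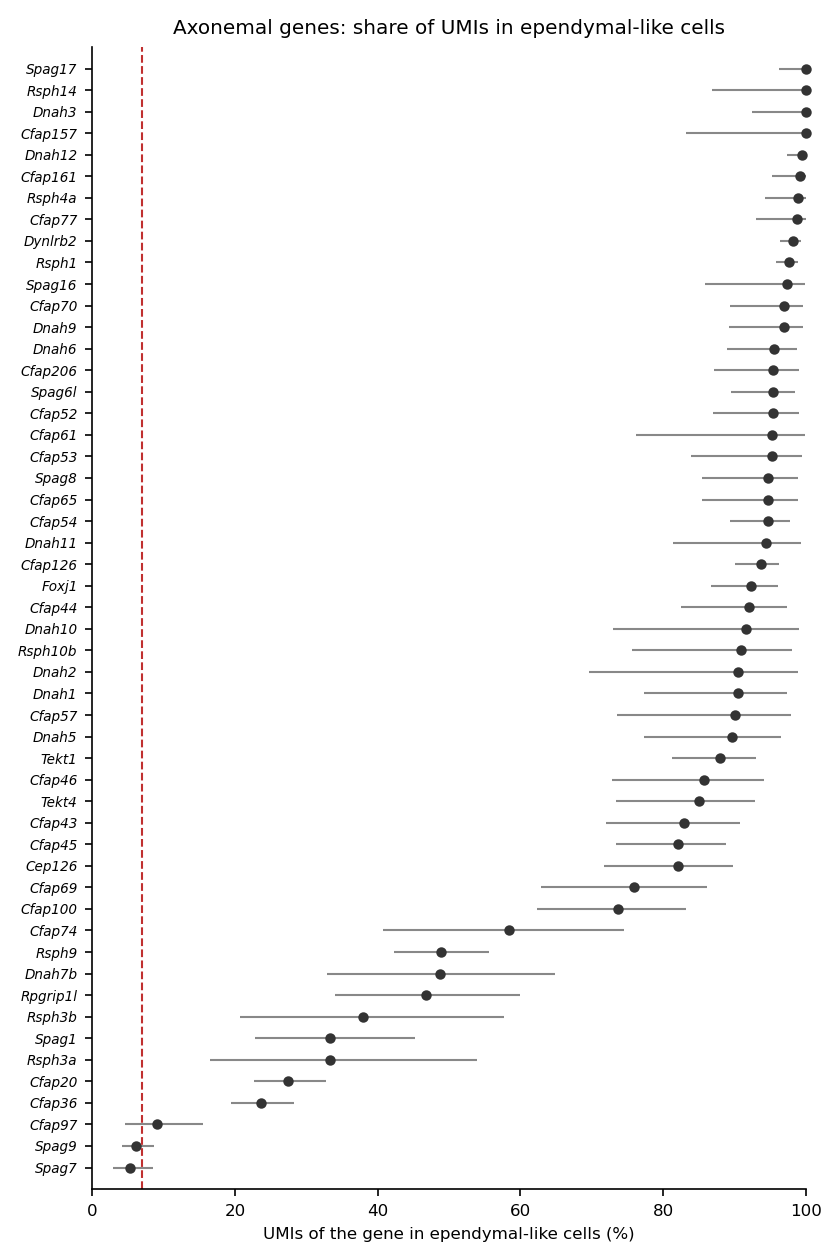
Share of each gene's UMIs found in ependymal-like cells (horizontal axis, percent, with exact binomial 95% intervals) for the 52 axonemal genes with at least 20 UMIs over both libraries. The dashed line is the share of all UMIs held by these cells, 7.00%, and Spag7, Spag9 and Cfap97 are the 3 genes whose intervals include it.

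Foxj1, the transcription factor that switches on the motile cilium programme, had 107 UMIs in control (467 CPM) and 25 in MNPQ ependymal-like cells (522 CPM), and it was found in 21 of 26 and 6 of 6 of these cells. Outside them it had 3 control UMIs, all in oligodendrocyte-like cells. In the MNPQ library it had 8 UMIs outside, 6 of them in oligodendrocyte-like cells and 2 in astrocyte-like cells. With oligodendrocyte-like cells thinned to 1000 UMIs, leaving out 11 control and 35 MNPQ cells with fewer, Foxj1 was found in 0 of 53 control and 0 of 76 MNPQ cells. These allow up to 6.72% and 4.74% of cells, beside 4.69% and 5.41% found without thinning, so they cannot show absence. Thinning also lowered detection in ependymal-like cells, to 9 of 25 control and 3 of 6 MNPQ cells.

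The promoters of the family were searched because many of its genes were high in the same few cells. RFX factors bind the X-box, a motif built of a pair of inverted short elements, and act beside FOXJ1 at ciliary genes. RefSeq promoters (GRCm38.p6, 250 bases before to 50 after the start) were matched to 56 of the 72 genes, with 65 windows. The single element GTTGCC, on either strand, was in 33.8% of these windows and in 12.5% of all 32851 windows. The pair, spelled GTTNCC and after 3 further bases GNAAC on either strand, which can overlap the single element, was in 7.69% and 0.804%. The forkhead core TGTTTAC, on either strand, was in 7.69% and 3.65%. These were taken from 12 spellings tried, of which 8 were more frequent in the family's windows. The 4 others were the pairs in which both inverted elements were full (GTTNCC or GTTGCC with GGNAAC). They were in none of the family's windows and in 0.128% to 0.813% of all windows. The pair counted above leaves a base of 1 element open. The single element was in the promoters of 7 of 22 genes with at least 90% of their UMIs in ependymal-like cells and of 3 of 9 genes with under 50%. The pair was in 3 of those 22 and 0 of those 9, and the forkhead core in 0 of the 22 and 1 of the 9 (Cfap20). A match describes the letters only. Below, 3 genes with the pair (Cfap44, Cfap45 and Spag16) are shown with 3 concentrated genes that hold the single element (Dynlrb2, Cfap161 and Dnah10) and with Cfap20, which was found in all the larger cell classes and holds it too. Each run is 60 bases upstream of the start, 5′ to 3′ on the gene's strand, with matches to the single element or the pair in capitals.
Cfap44, chr16:44394739-44394798, plus strand: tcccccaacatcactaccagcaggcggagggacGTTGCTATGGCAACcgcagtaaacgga
Cfap45, chr1:172521070-172521129, plus strand: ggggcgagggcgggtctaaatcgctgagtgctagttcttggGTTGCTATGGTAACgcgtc
Spag16, chr1:69826842-69826901, plus strand: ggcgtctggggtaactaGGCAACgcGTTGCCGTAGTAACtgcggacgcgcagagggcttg
Dynlrb2, chr8:116504939-116504998, plus strand: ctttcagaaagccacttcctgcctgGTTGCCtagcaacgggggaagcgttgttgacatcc
Cfap161, chr7:83794864-83794923, minus strand: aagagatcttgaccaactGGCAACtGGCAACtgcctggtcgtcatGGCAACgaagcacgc
Dnah10, chr5:124725025-124725084, plus strand: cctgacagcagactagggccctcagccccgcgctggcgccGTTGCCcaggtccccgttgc
Cfap20, chr8:95434929-95434988, minus strand: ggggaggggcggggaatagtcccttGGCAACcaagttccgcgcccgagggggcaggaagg

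The radial spoke gene Rsph1, a head protein of the spoke, was the most abundant concentrated gene. It had 387 UMIs in control ependymal-like cells against 8 in all other control cells, and 68 against 3 in the MNPQ library. Rsph4a, a second spoke head protein, had 78 against 1 and 15 against 0. Rsph14 had 21 and 5 UMIs in ependymal-like cells and 0 outside in both libraries. These spoke genes were at or near 0 in the other cells. Cfap206 and Cfap61, which belong to the base and stalk region of the spokes, had 95.4% and 95.2% of their UMIs in ependymal-like cells, and Rsph10b had 90.9%. Rsph9, another spoke head protein, was unlike these: 48.9% of its UMIs were in ependymal-like cells. It had 49 UMIs in control and 38 in MNPQ astrocyte-like cells, found in 13.3% and 10.0% of them. Other classes held it too. It was found in 16.0% and 7.14% of pericyte-like cells, on 4 and 2 UMIs. In oligodendrocyte-like cells the shares were 4.69% and 4.50%, in neuron-like cells 2.52% and 2.80%, and in endothelial-like cells 1.49% and 1.56%. Microglia-like cells had 0 Rsph9 UMIs in both libraries, with higher median depths (1549 and 1229.5 UMIs) than astrocyte-like cells (816 and 772). The 0 of 143 and 0 of 112 allow up to 2.10% and 2.68% of cells with a UMI, which is no limit on cells that express the gene. The source of the Rsph9 UMIs outside ependymal-like cells was not tested. Rsph3a and Rsph3b had 27 and 29 UMIs. They share 89.6% of the 31-base words in the last 500 bases of their transcripts, so their separate counts are uncertain.

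The dynein heavy chains are the motors of the beat, and most were found almost only in ependymal-like cells. The inner arm heavy chain Dnah12 was the most abundant, with 167 UMIs in control and 35 in MNPQ ependymal-like cells (728 and 730 CPM), and 1 and 0 elsewhere. Dnah3 had no UMI outside ependymal-like cells in either library (43 and 4 within). Dnah6 had 77 and 8 UMIs within and 3 and 1 outside, and Dnah1, Dnah2 and Dnah10 had 90.5%, 90.5% and 91.7% of their UMIs in the class. The outer arm chains Dnah9, Dnah5 and Dnah11, which give the beat its force, had 96.9%, 89.6% and 94.4%. The outer arm chain Dnah8 had 5 UMIs in all, and Dnah17 had 0; both are best known from sperm. Dnah7b had 48.8%, with 12 UMIs in control and 2 in MNPQ astrocyte-like cells, but Dnah7a, Dnah7b and Dnah7c share 40.6% to 62.6% of the 31-base words at their ends, so their separate counts are uncertain.

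Dynlrb2, a roadblock light chain used by ciliary dyneins, had 337 and 55 UMIs in ependymal-like cells and 7 and 0 elsewhere; 0 allows up to 1.57 CPM. Dynlrb1, its counterpart in cytoplasmic dynein, was spread over all classes, with 58 UMIs in control ependymal-like cells and 583 elsewhere, and with 9 and 653 in MNPQ cells. The ends of their transcripts share no 31-base word. The ratio between ependymal-like and other control cells on the log2 scale was -0.38 for Dynlrb1 (interval -0.79 to 0.01).

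In the central pair group, Spag17 and its partner Spag6l were confined to the class or nearly so, with 85 and 11 UMIs of Spag17 within and 0 outside in both libraries, and 94 and 9 UMIs of Spag6l within and 4 and 1 outside. Spag6, the close relative of Spag6l, had 0 UMIs. Cfap54 had 101 and 23 UMIs within and 6 and 1 outside. Cfap70, Cfap65, Spag16 and Cfap46 had 96.9%, 94.7%, 97.3% and 85.7% of their UMIs in the class, while Cfap69 had 75.9% and Cfap74 58.3%. Neuron-like cells held 2 control and 6 MNPQ UMIs of Cfap69.

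The doublet microtubules carry proteins on their inner wall that stiffen them. Of these, Cfap126 had 216 and 36 UMIs in ependymal-like cells and 11 and 6 outside, and Cfap161 had 88 and 26 within and 1 and 0 outside. Cfap77, Cfap53 and Cfap52 had 98.7%, 95.2% and 95.3% in the class. The tektins, filaments of the doublet wall, were less confined: Tekt1 had 88.0% and Tekt4 85.0%, whereas Tekt2 and Tekt3 had 16 and 10 UMIs in all. Tekt5 had 7 UMIs, all in astrocyte-like and neuron-like cells. Cfap45 had 82.1%, with 7 control and 2 MNPQ UMIs in neuron-like cells. Cfap20, a protein of the inner junction of the doublet, had 27.5% and was found in all 6 other classes that had 20 or more cells per library.

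Among the proteins that tether or tune the dynein arms, Cfap44, Cfap43 and Cfap100 had 92.1%, 82.9% and 73.7% of their UMIs in ependymal-like cells, Cfap57 had 19 and 8 UMIs within and 2 and 1 outside, and all 7 UMIs of Cfap73 were within. Spag1, a factor of dynein arm assembly in the cytoplasm, had 33.3%. The centrosomal gene Cep126 had 82.1%, and Rpgrip1l, a transition zone gene of primary cilia too, had 46.8%. Of genes in no group, Spag8 and Cfap157 had 94.7% and 100%, and Cfap36 23.6%. Of rare genes not given elsewhere, Dnah7c had 18 UMIs, Dnah7a 16, Cfap221 and Dnah14 10 each, Cfap99 5 and Cfap58 3. Dnah2os had 7 UMIs, all in endothelial-like cells (3 control and 4 MNPQ).

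The Spag symbols also hold genes known for work outside the axoneme. Spag9, a scaffold of JNK signalling and motor adaptor, was the most abundant of the 72 genes, with 503 UMIs of which 6.16% were in ependymal-like cells. Spag7 had 287 UMIs and 5.23%. Spag5, a mitotic spindle gene, had 0 in ependymal-like cells and 6 of its 18 UMIs in 1 MNPQ neuroblast-like cell, and Spag4 had 6 UMIs. The 11 genes with under 50% in ependymal-like cells (Spag9, Spag7, Cfap97, Cfap36, Cfap20, Spag1, Rsph3a, Rsph3b, Rpgrip1l, Dnah7b and Rsph9) held 922 of the 1103 control UMIs outside the class and 713 of the 830 MNPQ UMIs.

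Other ciliary genes were read from lists set by function, from motile cilium genes outside the rule to genes that every cell uses. The lists were set with earlier results of these data known, and the minimum of 10 UMIs was again set on all kept cells. Genes such as Hydin, with 46 control UMIs in ependymal-like cells and 0 outside, could only be counted as higher. The counts of motile cilium genes are therefore no separate evidence. Of 63 further motile cilium genes counted in the control library, 63 were at least 4-fold higher in ependymal-like cells, and of 38 counted in the MNPQ library, 38 were. Over all genes counted the shares were 8.76% (control) and 7.95% (MNPQ). Ccdc153, the highest in the control library and the most abundant, had 855 UMIs against 7 there and 170 against 0 in the MNPQ library. Morn2, the lowest in the control library, had 46 against 83 and 15 against 68. The genes of the multiciliation list, mostly transcription factors but also Deup1 and Ccno, were rarer. At least 4-fold higher were 4 of 6 in the control library (Deup1, Myb, Rfx1 and Rfx2) and 1 of 3 in the MNPQ library. In the control library Rfx2 was highest (14 UMIs against 1) and Rfx4, the most abundant, lowest (11 against 39). Rfx4 was the 1 gene past 4-fold in the MNPQ library (5 against 42, a log2 ratio of 2.25), where Rfx2 had too few UMIs to be counted. Intraflagellar transport, which builds cilia of every kind, had 20 of 28 and 18 of 26; Wdr35 was highest at a log2 ratio of 4.34, Kif3b lowest at -1.09, and Ift20 most abundant at 1.64, all in the control library. The transition zone and BBSome list had 11 of 22 and 13 of 21, in the control library from Rpgr, a transition zone gene, at a log2 ratio of 3.74 to Ahi1, the most abundant, at -0.96. In the MNPQ library Tmem67, also of the transition zone, was highest at 5.12, Rpgr was at 3.32 and Ahi1 at 0.53, and the BBSome genes Bbip1 and Bbs9 had a ratio of 0.30 and 0 UMIs against 30. The lists for signalling and for cytoplasmic transport held 1 gene or none per library, close to what the shares over all genes counted would give. Primary cilium signalling had 1 of 8 and 1 of 10, with Arl3 both highest and most abundant at 2.01 and Ptch1 lowest at -1.32 in the control library. The 1 gene of the MNPQ library was Arl13b at 2.38, and Arl3 stood at 1.24 there. Cytoplasmic dynein had 0 of 12 in both libraries, from Dynll1, the most abundant, at 1.63 to Dynlt3 at -1.62 in the control library.

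Over all kept cells the axonemal genes were lower in the MNPQ library, at 731 CPM against 2247 CPM in the control, a log2 ratio of -1.62 (interval -1.71 to -1.53), or 3.07-fold. Of the 52 genes with at least 20 UMIs, 46 were at least 2-fold lower in the MNPQ library, against 7.3% of 12067 genes, and 0 were at least 2-fold higher, against 2.45%. Of the 52, 31 had at least 90% of their UMIs in ependymal-like cells. Genes such as Spag17, with 85 of its 96 UMIs in control ependymal-like cells, reached the minimum through those cells. The 46 genes therefore rest largely on the same few cells and are not separate results. The 6 not 2-fold lower were Cfap20, Cfap36, Rsph3a, Rsph3b, Spag7 and Spag9. Rsph1 had 395 control and 71 MNPQ UMIs (-2.44, interval -2.83 to -2.08), Dynlrb2 344 and 55 (-2.61), Spag6l 98 and 10 (-3.26), and Foxj1 110 and 33 (-1.70). The naming markers Tmem212 and Mia, which are not ciliary genes of the rule, had 758 and 112 UMIs (-2.73) and 345 and 53 (-2.67). As such markers name the class, they are no separate evidence. The naming markers Rarres2 and Cd24a were less confined to the class. Rarres2 had 1061 control and 220 MNPQ UMIs within and 218 and 184 outside, and Cd24a 193 and 50 within and 8 and 45 outside. The 2 libraries differed in the number of ependymal-like cells, 26 and 6, a difference of -2.25 percentage points of cells (Newcombe interval -3.63 to -1.01). With each cell's class taken from marker scores the numbers were 30 and 16 and the difference -1.53, with an interval from -3.11 that reached 0; under a stricter filter (500 genes, 10% mt- UMIs) it was -4.89. Treatment, dissection and cell recovery cannot be told apart with 1 library a group.

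Within the ependymal-like cells the libraries were much closer. The 72 genes together had a log2 ratio of -0.24 (interval -0.37 to -0.11), and of -0.49 with classes from marker scores. Of 47 genes with at least 20 UMIs, 11 were at least 2-fold lower in the MNPQ cells, against 10.5% of 2560 genes, and 1 (Cfap57, 19 and 8 UMIs) was at least 2-fold higher, against 5.9%. The 11 were Cep126, Cfap46, Cfap65, Cfap69, Cfap74, Dnah1, Dnah10, Dnah3, Dnah5, Dnah6 and Spag6l. Among them the interval excluded 0 for Spag6l alone, at 410 and 188 CPM (-1.13, interval -2.30 to -0.14). The median log2 ratio was -0.37 over these genes and -0.03 over all genes counted. Smooth muscle and astrocyte markers, given above, were higher in the MNPQ cells. So were oligodendrocyte (663 and 1106 CPM), endothelial (82.9 and 188) and microglia markers (126 and 188). Erythroid (95.9 and 0) and vascular fibroblast markers (17.4 and 0) were lower, as were the choroid plexus and tanycyte markers given above. Marker lists with 1 control UMI had 0 in the MNPQ cells. Neuron markers were level (458 and 459). The part of all these markers in the values was not tested.

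By structure, the central pair genes were lower in the MNPQ cells, with 523 UMIs in control (2281 CPM) and 69 in MNPQ cells (1440 CPM), a log2 ratio of -0.66 (interval -1.05 to -0.30). The inner arm heavy chains had 402 and 63 UMIs, or -0.42 (-0.82 to -0.03). The basal body and transition zone genes, Cep126 and Rpgrip1l, stood at -0.79 on 83 and 10 UMIs, with an interval that holds 0 (-1.91 to 0.16). The outer arm heavy chains went the other way, with 110 and 30 UMIs (480 and 626 CPM), at 0.38 with an interval of -0.25 to 0.98 that holds 0. The doublet wall proteins and tektins were level, with 752 and 155 UMIs and a ratio of -0.02 (-0.28 to 0.23), and the radial spoke genes stood at -0.19 (-0.47 to 0.09). Single genes within a group differed: among central pair genes Cfap54 was at 0.12 (-0.60 to 0.79), and among outer arm chains Dnah9 was at 0.85 (-0.04 to 1.69) and Dnah5 at -1.48 (-3.82 to 0.17). Only 6 MNPQ cells stand behind each of these values.

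**Figure D4:**
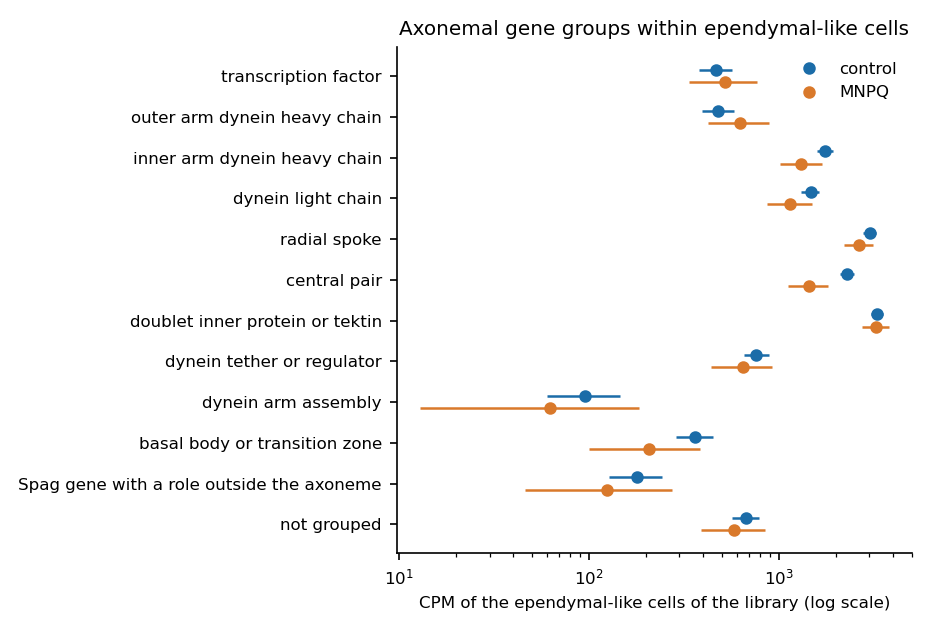
Level of each group of axonemal genes in ependymal-like cells (horizontal axis, CPM on a log scale) in the control and MNPQ libraries, with exact Poisson 95% intervals. Central pair genes stood at 2281 and 1440 CPM, and doublet wall proteins and tektins at 3280 and 3234 CPM.

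Outside the ependymal-like cells the summed levels of 622 CPM (control) and 434 CPM (MNPQ) gave a log2 ratio of -0.52 (interval -0.65 to -0.39). Without Spag9 it was -0.39 (-0.55 to -0.24). Of 10 genes with at least 20 UMIs there, 4 (Cfap97, Dnah7b, Rpgrip1l and Spag1) were at least 2-fold lower in the MNPQ library, against 4.1% of 11521 genes, and 0 were at least 2-fold higher, against 2.37%. Rpgrip1l had 26 and 7 UMIs (interval of the log2 ratio -3.45 to -0.76) and Spag1 36 and 14 (-1.47, -2.48 to -0.54). Spag7 with 126 and 146 UMIs (0.10), Cfap36 with 144 and 147 (-0.08), Cfap20 with 121 and 111 (-0.23) and Rsph9 with 63 and 54 (-0.33) had intervals that hold 0.

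**Figure D5:**
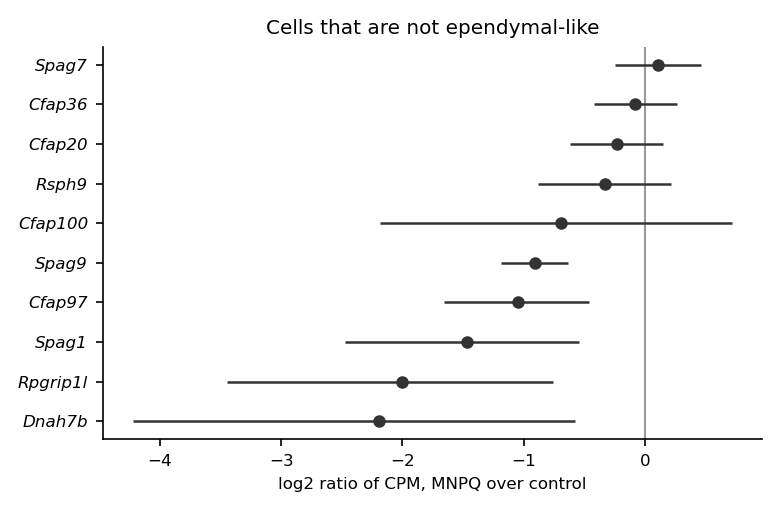
log2 ratio of CPM, MNPQ over control, in all kept cells that are not ependymal-like (horizontal axis, with exact conditional binomial 95% intervals), for the 10 axonemal genes with at least 20 UMIs there. Spag7 is near 0, and the intervals of Spag9, Cfap97, Spag1, Rpgrip1l and Dnah7b lie below 0.

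Spag9 had the largest difference in CPM of the 72 genes there, with 300 control and 172 MNPQ UMIs outside the class, a log2 ratio of -0.91 (interval -1.19 to -0.63). By CPM it was lower in the MNPQ library in each of the 6 other classes that had 20 or more cells per library. The interval lay below 0 in 2 of these classes. In astrocyte-like cells Spag9 had 102 and 47 UMIs (-1.07, interval -1.60 to -0.56) and was found in 23.1% and 11.7% of cells. Different clusters made up this class in the 2 libraries: the pair led by Agt and Itih3 had 53 and 72 of the 324 control cells but 6 and 17 of the 300 MNPQ cells, and the one led by Cxcl14 had 69 and 139. By cluster, Spag9 was lower in the MNPQ library in 6 of 6, and the interval lay below 0 in 1 of them, the second of the Agt and Itih3 pair (53 and 8 UMIs, -1.37, interval -2.66 to -0.29). In the Cxcl14 cluster it had 3 and 5 UMIs (59.7 and 47.8 CPM). In endothelial-like cells it had 73 and 34 UMIs (-1.20, -1.84 to -0.60) and was found in 50.7% and 28.1% of cells. In oligodendrocyte-like cells it had 35 and 40 UMIs (-0.64, -1.33 to 0.06), and in neuron-like cells 36 and 24 (-0.41, -1.22 to 0.37). Neuron-like clusters differed in size too, and Spag9 was lower in 3 of 5 and higher in 2. Cfap97 had 73 and 38 UMIs outside the class (-1.05, -1.66 to -0.46). Spag7, similarly widespread, was lower in 3 of the 6 classes and higher in 3.

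Within astrocyte-like cells 2 of 7 genes with at least 20 UMIs (Spag1 and Spag9) were at least 2-fold lower in the MNPQ library, against 6.52% of 5840 genes, and 0 were at least 2-fold higher, against 5.09%. By cluster Spag1 was lower in 4 of the 5 astrocyte-like clusters that held it and higher in 1, with intervals that hold 0 in all 5. The part of the cluster sizes in these values was not tested. Within neuron-like cells none of 4 genes was at least 2-fold lower or higher, against 6.61% and 5.99% of 3205 genes. The 31 genes with at least 90% of their UMIs in ependymal-like cells had 43 UMIs in 19 of 324 control astrocyte-like cells and 6 in 6 of 300 MNPQ astrocyte-like cells. In neuron-like cells they had 12 and 10. Among control astrocyte-like cells, 1 with 1805 UMIs held 19 axonemal UMIs and 1 with 730 UMIs held 8, shares of 1.05% and 1.10% that lie within the range of ependymal-like cells; the first also held 3 UMIs of the naming markers and the second none.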

How the data were processed

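The authors deposited UMI counts per gene and barcode as whole numbers. Their headers name Cell Ranger 3.0.2, and the submitters' processing notes name build mm10. Kept were barcodes with at least 200 genes and at most 20% mt- UMIs. Both libraries were clustered together with scanpy 1.11.5 (2000 variable genes, 30 components, 15 neighbours, Leiden resolution 1), without the axonemal genes and other cilium lists. Clusters of at least 40 cells were split again with 8 neighbours. Of 29 clusters, 27 were named from 18 marker lists into 12 classes, written -like because they rest on markers alone. Counts were summed by class and library and divided by the class total (CPM). A ratio against 0 used a limit of 3 counts.

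Every gene with at least 20 UMIs was to be described, with the highest, lowest and most abundant of other lists. The members, lists and markers were chosen with earlier results of these data known; the promoter motifs were chosen after trying spellings on these genes. The ratio and its interval were tested on simulated data. Doublets called by Scrublet (9 control and 6 MNPQ cells, none ependymal-like) were kept. Gene annotation came from GENCODE M21. Alternatives were other cell filters, clusterings, a class per cell, thinning, other UMI minimums, a narrower gene list and equal weights per cell. Barcodes that failed the filter are described only in the closing section.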

Additional observations from a re-analysis of the deposited data

How the results depend on the processing

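No paired analysis was possible because each group had 1 library. Every alternative kept the direction of the 4 differences between libraries. The control count of axonemal genes at least 4-fold higher in ependymal-like cells (52) stayed within 1.5 times in 12 of 13 alternatives and was 14 of 18 with cells thinned to 1000 UMIs. The MNPQ count (28) was 3 of 6 with thinning and 9 of 13 with 2.5 times the UMI minimum; in each fewer genes reached the minimum. Over all kept cells the log2 ratio (-1.62) was -1.81 under a stricter filter (500 genes, 10% mt- UMIs), -1.23 with thinning, -2.17 for the narrower gene list, -1.01 with each cell weighted the same and, chosen after seeing the data, -1.44 without the deepest ependymal-like cell. Outside ependymal-like cells (-0.52) it was -0.65 when marker scores gave each cell its class and -0.77 for the narrower list. Within them (-0.24) it was -0.49 with such classes, which put 16 MNPQ and 30 control cells in the class; with thinning it was -0.18, with an interval that holds 0. The difference in the share of ependymal-like cells (-2.25 percentage points) was -4.89 with the stricter filter and -4.21 in the cells deep enough to thin; with classes from marker scores it was -1.53, with an interval from -3.11 that reached 0. The cause of these shifts was not tested. The 6 MNPQ ependymal-like cells limit every value within the class: of 47 genes counted, 11 were at least 2-fold lower there, and for 1 the interval excluded 0.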

Other observations

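Barcodes that failed the filter held axonemal UMIs too. The 223 removed control barcodes had 147 of them (710 CPM), and 3 barcodes had at least 10: one with 1331 UMIs had 28, one with 1262 UMIs had 18 and one with 992 UMIs had 17. These 3 also held 2, 5 and 4 UMIs of the genes that name the ependymal-like class, and their mitochondrially encoded shares were 20.4%, 24.6% and 39.9%. The 111 removed MNPQ barcodes had 48 (465 CPM), at most 5 in one barcode. Of the 6 MNPQ ependymal-like cells that were kept, 2 had mitochondrially encoded shares of 18.0% and 16.5%, near the limit of 20%.

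Among the ependymal-like naming genes, Cd24a had 45 UMIs outside the class in the MNPQ library and 8 in the control library. The log2 ratio was 2.38 (95% interval 1.28 to 3.68). The 45 UMIs lay in 13 cells and the 8 in 8 cells, and the interval does not cover such clumping. Of the other naming genes, Tmem212 had 4 and 3 UMIs outside the class, Hdc 3 and 2, Rarres2 184 and 218, Mia 2 and 7 and Calml4 2 and 3.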
